A study of Homo sapiens with 16 samples.

Results

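The genes of human chromosome 7 were followed arm by arm in PC3, an established cell line from a human prostate cancer, grown as a monolayer or as a xenograft tumor. A gene was a member if GENCODE v29 places it on chromosome 7 and its mean over the 8 monolayer libraries reached 1 CPM, that is, 1 count per 1e6 counts of a library. Of the 20356 genes in the count table, 888 lay on chromosome 7, and 522 were members, 172 on the short arm (7p) and 350 on the long arm (7q). Genes of some families, such as HOXA, the collagens and the semaphorins, and a few single genes were left out by name, which removed 18 genes of 7p and 22 of 7q that met the level. Of the members, 519 were protein coding. Just under the limit were GARIN1A at 0.879, CTTNBP2 at 0.908 and NACAD at 0.913 CPM, and just above it PILRA at 1.00, LAT2 at 1.01 and HECW1 at 1.02 CPM. In gene order, 7p ran from FAM20C near its tip to CHCHD2 near the centromere, and 7q from ZNF736 to DYNC2I1.

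The groups were control monolayer, DDX4-null monolayer, control xenograft tumor and DDX4-null xenograft tumor, with 4 libraries each. DDX4 is an RNA helicase known from germ cells, and the series asked how its loss affects the cancer-related behaviour of PC3. All groups derive from PC3. The labels name neither the host animal nor the way DDX4 was removed, nor whether DDX4-null cells were 1 clone or several. Nor is it stated that the 4 libraries of each group were grown separately, in different dishes or hosts. P-values therefore rest on the spread among libraries alone, and that spread may be technical.

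Chromosome 7 carries genes of very different roles that share little but their position, among them the gene of beta-actin, a gene-dense stretch of 7q, clusters of KRAB zinc finger repressors, several imprinted genes and the stretch deleted in Williams syndrome. Neighbouring genes on a chromosome share replication timing, chromatin domains and the number of copies the cell carries of that stretch. Cancer lines often have gained, lost or rearranged chromosomes. DNA was not analysed here, and RNA levels alone are described.

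Promoters of 4 members show the range of sequence in front of genes that moved far in DDX4-null monolayers. For each arm they belong to the largest fall and the largest rise among the named members with an entry within 50000 bases of the GENCODE v29 gene start. On 7p, ZDHHC4 fell further, and COBL and SDK1 rose further, without such an entry. They are the RefSeq windows of 250 bases before to 50 bases after a transcription start, on GRCh38.p14, 5′ to 3′ on the gene's strand. Capitals mark each CpG, the dinucleotide that can carry DNA methylation.
AGR2, the fall on 7p, chr7:16804950-16805249, minus strand: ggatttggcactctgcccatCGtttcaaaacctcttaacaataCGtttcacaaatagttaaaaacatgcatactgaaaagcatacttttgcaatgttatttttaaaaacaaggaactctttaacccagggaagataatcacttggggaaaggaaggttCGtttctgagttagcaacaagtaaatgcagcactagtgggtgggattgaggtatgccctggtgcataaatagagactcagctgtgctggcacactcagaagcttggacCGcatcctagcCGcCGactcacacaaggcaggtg
PDE1C, the rise on 7p, chr7:32299279-32299578, minus strand: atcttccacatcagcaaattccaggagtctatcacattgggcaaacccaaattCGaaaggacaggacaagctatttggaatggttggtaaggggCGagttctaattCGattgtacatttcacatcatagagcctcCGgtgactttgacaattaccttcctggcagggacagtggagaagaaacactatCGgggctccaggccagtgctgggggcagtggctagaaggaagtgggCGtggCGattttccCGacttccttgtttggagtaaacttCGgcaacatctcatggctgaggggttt
MEST, the fall on 7q, chr7:130485925-130486224, plus strand: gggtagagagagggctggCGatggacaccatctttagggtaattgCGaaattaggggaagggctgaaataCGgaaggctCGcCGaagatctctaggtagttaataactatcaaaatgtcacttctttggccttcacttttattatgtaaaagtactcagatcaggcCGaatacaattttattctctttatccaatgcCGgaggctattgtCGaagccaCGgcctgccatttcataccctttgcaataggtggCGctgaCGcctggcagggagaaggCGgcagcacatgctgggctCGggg
PRKAR2B, the rise on 7q, chr7:107044455-107044754, plus strand: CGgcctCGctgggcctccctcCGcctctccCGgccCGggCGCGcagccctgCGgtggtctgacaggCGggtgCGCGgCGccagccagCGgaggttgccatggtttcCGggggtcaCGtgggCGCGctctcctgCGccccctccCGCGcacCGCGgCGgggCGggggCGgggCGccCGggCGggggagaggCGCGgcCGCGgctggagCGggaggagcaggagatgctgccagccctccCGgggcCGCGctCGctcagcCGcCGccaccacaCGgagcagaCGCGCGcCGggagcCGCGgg

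The windows held 6 CpG in AGR2, 9 in PDE1C, 13 in MEST and 46 in PRKAR2B. MEST had 5 starts in the table and PDE1C 6, and the start nearest to the GENCODE v29 gene start is shown; the single AGR2 start lay 28434 bases from the GENCODE v29 gene start. Of the 522 members, 438 had an entry (136 on 7p and 302 on 7q). A GC box, read as GGGCGG on either strand, was present in 71.2% of these windows against 45.0% of all 35116 windows in the table, and a TATA box, read as TATAAA on either strand, in 5.02% against 11.5%. The 35116 windows take in every listed start of any gene at any level, while members met the limit of 1 CPM and gave only their nearest start. These shares are thus not like for like, and nothing particular to chromosome 7 is read from them. By the monolayer comparison, the GC box was in 71.6% of the windows of members that fell and in 71.7% of those that rose. These matches describe letters in a window and not binding.

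Library totals ran from 12204254 to 25443952 counts. DDX4 itself had 0 to 5 counts in every library of every group, control monolayers included, which is too few to check the DDX4-null labels. Of the markers of this lineage, KLK3 was under 0.5 CPM in control monolayers, while 5 epithelial markers summed to 848 to 983 CPM there and 1431 to 1735 CPM in DDX4-null monolayers. That sum is mostly KRT8, KRT18 and KRT19, and CDH1 went the other way, with means of 14.9 and 7.02 CPM. Tumor libraries also held markers of other cells: 9 fibroblast markers summed to 1385 to 1885 CPM in control tumors, 1665 to 10974 CPM in DDX4-null tumors and at most 58.2 CPM in any monolayer. The 6 skeletal muscle markers summed to 98.8 to 339 CPM in control tumors and 5.84 to 323 CPM in DDX4-null tumors. Leukocyte markers reached 31.7 CPM in control tumors and 70.3 CPM in DDX4-null tumors. The 4 endothelial markers summed to 17.7 to 25.2 CPM in control and 20.9 to 39.6 CPM in DDX4-null tumors. In monolayers their sum was 14.0 to 15.8 CPM in controls and 25.1 to 28.9 CPM in DDX4-null libraries, which overlaps the DDX4-null tumors. Most of it was KDR, with means of 14.7 and 26.7 CPM in monolayers and 18.2 and 27.7 CPM in tumors, so this sum does not mark endothelial cells. None of these markers was called between both tumor groups (edgeR, adjusted p under 0.05), and 6 of the 6 muscle markers and 7 of the 9 fibroblast markers were under 0.5 CPM in control monolayers. Of the fibroblast markers, PDGFRA alone had a higher mean in DDX4-null monolayers, 9.39 CPM, than in control and DDX4-null tumors, 3.84 and 6.43 CPM. COL1A1 had means of 23.7 and 37.5 CPM in control and DDX4-null monolayers, against 915 and 1947 CPM in tumors. In bulk RNA, fewer cells of a type and less RNA per cell cannot be told apart, and whether reads of the host were removed is not given in the sources used here.

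In monolayers, the genes of both arms were lower in DDX4-null than in control libraries as a block. The level of an arm in a library was taken as the median, over its members, of the log2 ratio of CPM to the control monolayer mean, with 0.5 CPM added. For 7p this level lay between -0.03 and 0.02 in the 4 control monolayers and between -0.82 and -0.77 in the 4 DDX4-null monolayers. For 7q it lay between -0.01 and 0.01 in controls and between -0.69 and -0.67 in DDX4-null monolayers. The groups were far apart on both arms and narrow within. The median over the 11720 genes outside chromosome 7 that met the same level stayed within -0.02 to 0.04 in all 16 libraries. The scaling used (TMM) tends to hold such a median steady, and scaled by library totals it ran from -0.04 to 0.17. Single genes moved more, and the quartiles of their monolayer change were -0.39 and 0.49. As shares of all counts, members of 7p took a mean of 1.27% in control and 0.798% in DDX4-null monolayers, and members of 7q 1.98% and 1.27%. That chromosome 7 was lower in DDX4-null monolayers was known when the members were chosen, so these values describe it and do not test it.

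**Figure D1:**
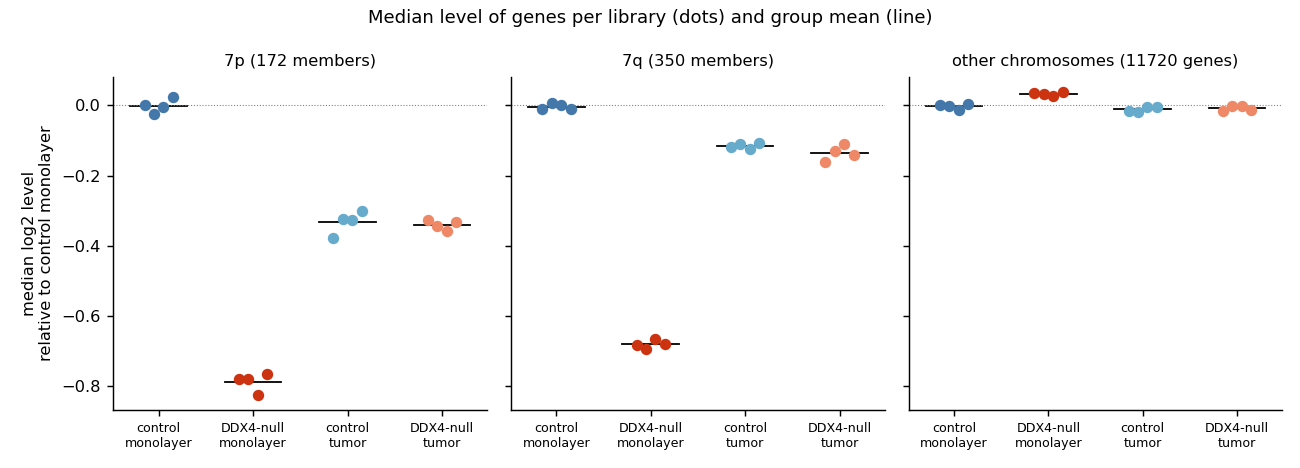
Median log2 level of the members of 7p, of 7q and of 11720 genes on other chromosomes in each of the 16 libraries, relative to the control monolayer mean. Dots are libraries and lines are means of 4. On 7p the DDX4-null monolayers sit between -0.82 and -0.77, and both tumor groups between -0.38 and -0.30; on 7q the DDX4-null monolayers sit between -0.69 and -0.67 and the tumors between -0.16 and -0.11.

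Gene by gene, 132 of 172 members of 7p fell and 16 rose in DDX4-null monolayers, against a background of 32.3% of 13006 tested genes that fell and 35% that rose (edgeR, adjusted p under 0.05 over all genes). Of 350 members of 7q, 253 fell and 38 rose. The median log2 change was -0.83 on 7p, with quartiles of -1.18 and -0.27, and -0.70 on 7q, with quartiles of -1.08 and -0.20. Over the genes of other chromosomes it was 0.04. Falls of at least 2-fold were called for 61 members of 7p and 103 of 7q. Their share over all tested genes was not counted, and the lower quartile of the change on other chromosomes was -0.39. The 4 control and 4 DDX4-null libraries did not overlap for 141 members of 7p and 267 of 7q, against 59.4% of all tested genes. Of the 385 members that fell, 361 kept the call when any 1 library was left out, and of the 54 that rose, 48 did.

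Among 41 chromosome arms with at least 20 tested genes, 7p and 7q had the lowest medians in this comparison, over all tested genes of the arm -0.86 and -0.69. The arm of the next lowest median was Xq at -0.56, followed by 18p at -0.50, and the highest were 12p and 21q at 0.48. In tumors the order was another one: 7q was 20th and 7p 26th from the lowest, with medians of 0.01 and 0.02.

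**Figure D2:**
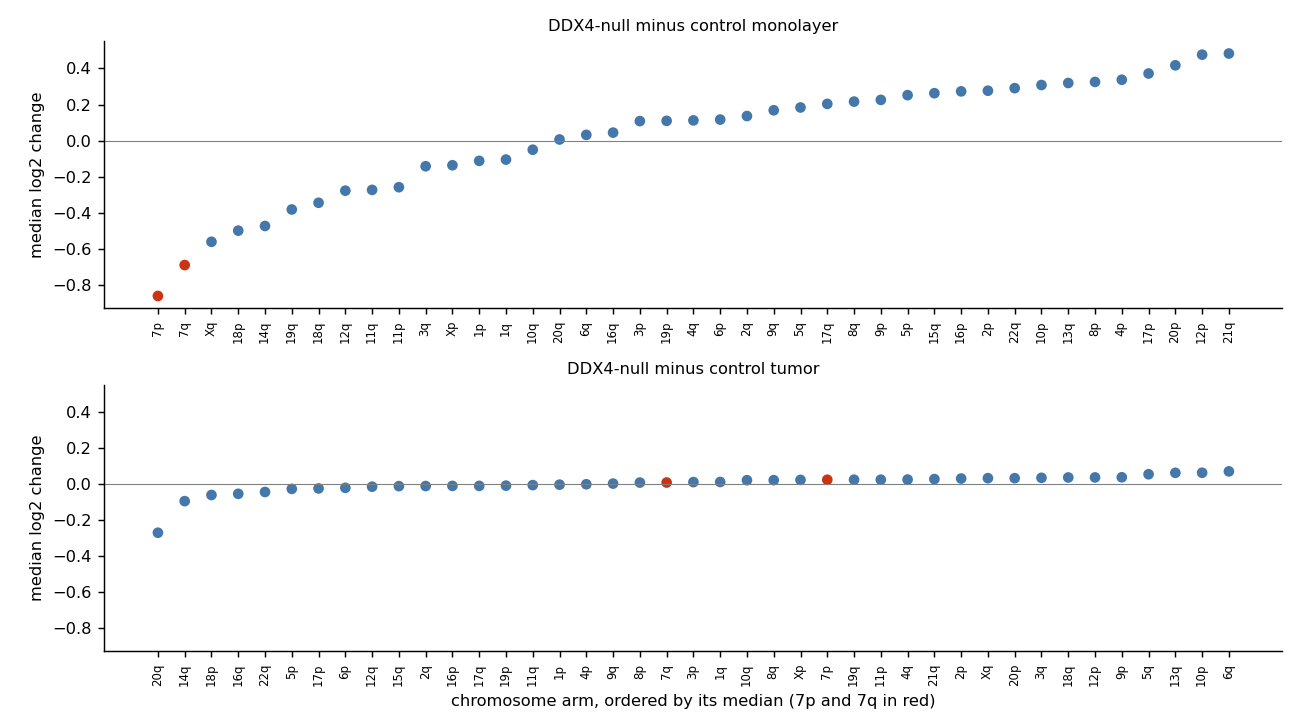
Median log2 change of all tested genes of each of 41 chromosome arms, DDX4-null minus control, in monolayers (upper panel) and in tumors (lower panel), each ordered from the lowest. The arms 7p and 7q, in red, are at -0.86 and -0.69 in monolayers and at 0.02 and 0.01 in tumors.

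By mean level over the 8 monolayers, the median change on 7p was -0.83 in the 57 lowest members, -0.81 in the next 57 and -0.83 in the 58 highest. The lowest members were spread more widely, with an upper quartile of 0.20 against -0.38 and -0.61, and with 34 falls and 11 rises against 49 and 2, and 49 and 3. On 7q the median was -0.43 in the 117 lowest, with 61 falls and 31 rises, -0.70 in the next 116, with 91 and 1, and -0.77 in the 117 highest, with 101 and 6. Of the 54 members that rose on either arm, 17 had a control monolayer mean under 1 CPM. Of the 385 that fell, 13 had a DDX4-null monolayer mean under 1 CPM. Such genes could become members only through the group where they were high, and then fall among the lowest. Nothing about level and direction is therefore read from these counts.

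Members also differed from their own arm. When each gene was tested against the median change of its arm, 58 members of 7p lay above it, 50 below, and 64 were not called. On 7q 113 lay above, 108 below and 129 were not called. As shares, 62.8% of the members of 7p and 63.1% of those of 7q were called either way, against 66.4% of all 13006 genes in the same fit. In that fit only members were set against the median of their arm, and all other genes against no change. The shares are therefore not like for like.

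Along the chromosome the depth of the shift varied. With members cut into consecutive stretches of 28 to 30, the lowest median of any was -1.16, in the last stretch of 7p before the centromere, from YKT6 to CHCHD2, where 25 of 28 members fell. The level of that stretch was -0.04 to 0.03 in control and -1.27 to -1.08 in DDX4-null monolayers. The shallowest was the stretch of 7q from ZC3HC1 to ZC3HAV1L, with a median of -0.25, 15 falls and 3 rises among 29 members and a level of -0.36 to -0.21 in DDX4-null monolayers. It holds MEST at -4.95 ± 0.25 and CPA4 at 1.89 ± 0.11, so its members were far from uniform. A running median over 21 members was lowest around CCM2 on 7p, at -1.31, and on 7q around SDHAF3, at -1.05. It was highest around TRA2A on 7p, at -0.26, and around CLIP2 in the Williams syndrome stretch of 7q, at 0.08.

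**Figure D3:**
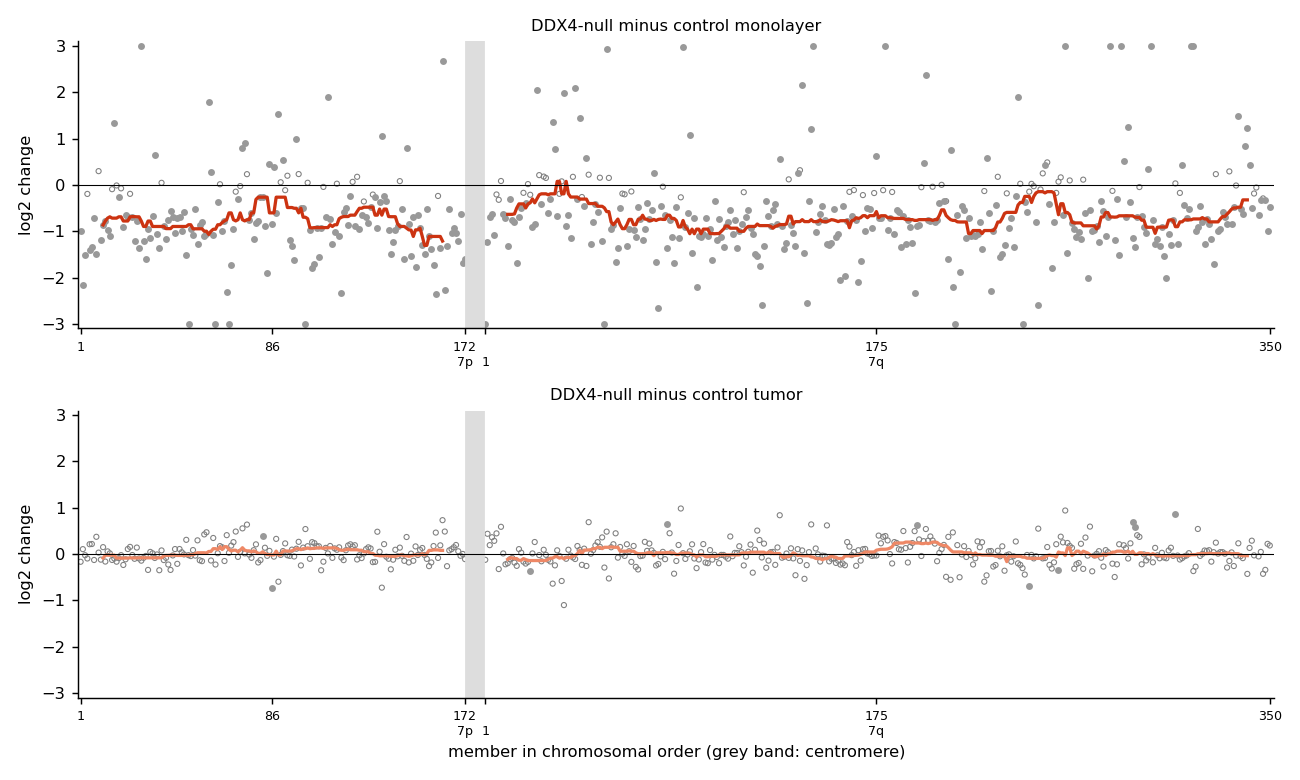
Log2 change of each member, DDX4-null minus control, in gene order along chromosome 7 in monolayers (upper panel) and tumors (lower panel). Filled grey points passed edgeR's adjusted p of 0.05, open points did not, and values beyond 3 or -3 are drawn at the edge. The line is the running median of 21 members, over windows with at least 18 tested, and runs between -1.31 and 0.08 in monolayers.

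The most abundant members per kilobase of exon in monolayers were ACTB on 7p, at 385 CPM per kilobase, and ZYX on 7q, at 211. ACTB, which encodes beta-actin, was at 1320.1, 1562, 1498 and 1121 CPM in control and at 1548, 1346, 1547 and 1236 CPM in DDX4-null monolayers. These ranges overlapped almost whole, and the log2 change was 0.05 ± 0.12 (edgeR, adjusted p = 0.752). ZYX encodes the focal adhesion protein zyxin. It was at 869, 1113, 1032 and 771 CPM in control and 624, 613, 602 and 489 CPM in DDX4-null monolayers, without overlap, and fell by 0.70 ± 0.12 on the log2 scale (adjusted p = 4.27e-05). Its gene model overlaps that of EPHA1, and the strand setting of the counting is not given in the sources used here.

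CHCHD2, a protein of the mitochondrial intermembrane space, was at 393, 320.0, 323 and 474 CPM in control and 131, 127, 108 and 132 CPM in DDX4-null monolayers, a log2 change of -1.6 ± 0.12. PPIA, which encodes the prolyl isomerase cyclophilin A, changed by -0.66 ± 0.12 and GARS1, glycyl-tRNA synthetase, by -0.70 ± 0.09. On 7q, ASNS, which encodes asparagine synthetase, was at 932, 721, 771 and 986 CPM in control and 329, 295, 278 and 336 CPM in DDX4-null monolayers, a change of -1.46 ± 0.11. CAV1, the main coat protein of caveolae, was 373 to 492 CPM in control and 370.0 to 454 CPM in DDX4-null monolayers, with overlap and a change of -0.04 ± 0.11 that was not called (adjusted p = 0.762). ATP6V1F, a subunit of the proton pump of lysosomes, changed by -0.62 ± 0.14. Of the 10 most abundant members, 5 on each arm, 7 fell, AGR2 among them, ACTB and CAV1 were not called, and HSPB1 rose.

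Among members of at least 5 CPM in the higher group, the largest fall on 7p was that of ZDHHC4, a protein palmitoyltransferase. It was at 10.7, 10.1, 11.4 and 12.4 CPM in control monolayers and at 0.429, 0.296, 0.243 and 0.417 CPM in DDX4-null monolayers. In tumors it was at 13.4, 14.4, 15.4 and 14.1 CPM in controls and 16, 13.1, 13.7 and 13.8 CPM in DDX4-null libraries. The DDX4-null monolayers alone were low, with 26 counts in all 4 against 700 in the control monolayers, and the log2 change there was -4.95 ± 0.21 (edgeR, adjusted p = 9.5e-14), against -0.02 ± 0.11 in tumors. With a DDX4-null monolayer mean of 0.346 CPM, ZDHHC4 became a member only through its control monolayers. The direction of its monolayer change was thus fixed by the choice of members, and its values describe the size and do not test it.

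AGR2, an endoplasmic reticulum protein of the disulfide isomerase family that secretory epithelia make, followed with a change of -4.45 ± 0.15. It was at 1325, 959, 1058 and 1453 CPM in control and 50.7, 61.8, 47.4 and 58.8 CPM in DDX4-null monolayers, and at 284, 235, 245 and 206 CPM in control and 281, 251, 257 and 202 CPM in DDX4-null tumors. Both tumor groups lay between both monolayer groups. The ABC transporter gene ABCA13 was at 34.3 to 40.1 CPM in control and 5.14 to 8.58 CPM in DDX4-null monolayers, and at 22.9 to 38.4 and 27 to 52.8 CPM in tumors. VWDE and PRR15 changed by -3.28 ± 0.20 and -2.99 ± 0.16 in monolayers.

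By the same measure the largest fall on 7q was that of MEST, an imprinted gene expressed from the paternal copy. It was at 7.95, 7.97, 8.56 and 9.96 CPM in control and 0.376, 0.355, 0.0607 and 0.278 CPM in DDX4-null monolayers, and at 8.62, 8.35, 9.46 and 11.8 CPM in control and 5.39, 8.06, 8.07 and 9.28 CPM in DDX4-null tumors. Again the DDX4-null monolayers alone were low, with 20 counts in all against 540, and the log2 change was -4.95 ± 0.25 (adjusted p = 1.86e-12). The gene model of COPG2 overlaps it, and COPG2 changed by -0.38 ± 0.15. ZNF736, a KRAB zinc finger gene at the centromeric end of 7q, was at 8.28 to 12.1 CPM in control and 0.177 to 0.667 CPM in DDX4-null monolayers, and at 17.6 to 24 CPM in control and 16.9 to 19.7 CPM in DDX4-null tumors. Reads of such genes can be shared with close copies, so its values are uncertain. MEST and ZNF736, with DDX4-null monolayer means of 0.267 and 0.473 CPM, became members only through their control monolayers. The direction of their monolayer changes was likewise fixed by the choice of members and is not tested by these values.

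SAMD9L, an interferon-responsive gene, was at 38 to 40.6 CPM in control and 5.37 to 7.52 CPM in DDX4-null monolayers. It was at 51.8, 58.4, 56 and 45.8 CPM in control and 8.67, 77.2, 74.8 and 20.3 CPM in DDX4-null tumors, where libraries differed widely from each other. PILRB, an activating receptor paired with PILRA, changed by -2.59 ± 0.16 in monolayers, and the gene models of PILRA and PILRB overlap.

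Against the shift of the arms, HSPB1 on 7q rose strongly. It encodes the small heat shock protein HSP27 and was at 77.5, 81.3, 74.7 and 79.6 CPM in control and 327, 415, 310.3 and 286 CPM in DDX4-null monolayers. In tumors it was at 140.2 to 155 CPM in controls and 118 to 175 CPM in DDX4-null libraries, between both monolayer groups. Its monolayer change was 2.09 ± 0.11 (adjusted p = 3.99e-12). Of the 54 members that rose, 11 had a control mean of at least 20 CPM, and 3 of these rose at least 2-fold: HSPB1, the carboxypeptidase gene CPA4 at 1.89 ± 0.11 and PDE1C, a calcium- and calmodulin-dependent phosphodiesterase, at 1.9 ± 0.12. This group of 11 was singled out after its values were seen.

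PDE1C was at 23.3, 20.7, 20.7 and 27.1 CPM in control and 73.6, 86, 84.6 and 97.5 CPM in DDX4-null monolayers. CPA4, 1 of the imprinted genes, was at 20.9 to 27.9 and 86.1 to 104 CPM. In tumors PDE1C lay at 36.8 to 50.5 CPM in controls and 35.6 to 53.2 CPM in DDX4-null libraries, and CPA4 at 41.1 to 60.4 and 38.9 to 51.1 CPM, so for both genes tumors lay between the monolayer groups. On 7p the adhesion gene SDK1 changed by 3.09 ± 0.19, the actin nucleator gene COBL by 2.67 ± 0.19, JAZF1 by 1.0 ± 0.16 and CDCA7L, whose product binds MYC, by 0.90 ± 0.10. SDK1, with a control monolayer mean of 0.916 CPM, became a member only through its DDX4-null libraries.

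The largest rises named on 7q came from genes with almost no counts in control monolayers, where a fitted change depends on the prior count. PRKAR2B, a regulatory subunit of protein kinase A, had 3 counts in the 4 control and 488 in the 4 DDX4-null monolayers, a ratio per total count of 145 with a 95% exact interval of 49.5 to 707. NOS3, the endothelial nitric oxide synthase, had 10 and 1238 counts, a ratio of 111 with an interval of 60.0 to 231. CNTNAP2, a neurexin-related membrane protein of neurons, had 5 and 527 counts, a ratio of 94.2 with an interval of 40.1 to 291. Intervals cover counting error only, since PCR reads without molecular identifiers are not independent molecules. PRKAR2B, NOS3 and CNTNAP2 had control monolayer means under 1 CPM and became members only through their DDX4-null libraries. Their direction was thus fixed by the choice of members, and the ratios and intervals describe its size and do not test it. In tumors these genes had 47 and 48, 112 and 72, and 10 and 26 counts in control and DDX4-null libraries. The gene model of ATG9B overlaps that of NOS3. DYNC1I1, an intermediate chain of dynein, changed by 2.97 ± 0.19 and CACNA2D1, an accessory subunit of calcium channels, by 2.94 ± 0.25. CACNA2D1, with a control monolayer mean of 0.745 CPM, also became a member only through its DDX4-null libraries.

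**Figure D4:**
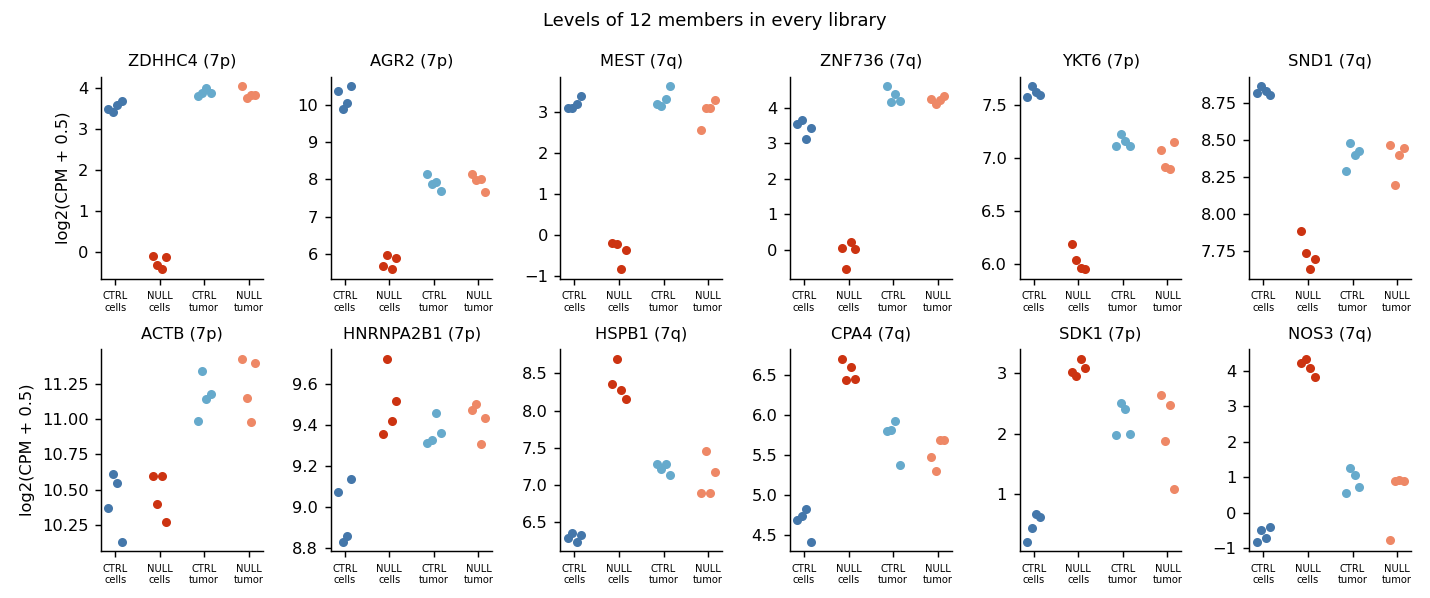
Level of 12 members in each of the 16 libraries as log2(CPM + 0.5), with 4 dots per group in replicate order and a separate vertical scale for each gene. ZDHHC4, MEST and ZNF736 are near 0 CPM in DDX4-null monolayers only, AGR2, YKT6 and SND1 place the tumors between both monolayer groups, and HSPB1, CPA4, SDK1 and NOS3 are highest in DDX4-null monolayers.

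The members were also grouped by role, from 13 lists written with earlier results of these data known. Of 21 members for the actin cytoskeleton and caveolae, 16 fell and 2 rose in DDX4-null monolayers, with a median change of -0.70. The Arp2/3 subunit genes ARPC1B and ARPC1A changed by -1.62 ± 0.10 and -0.95 ± 0.10. RAC1, a small GTPase that drives actin assembly at the cell edge, changed by -1.0 ± 0.10, from 319.8 ± 26.9 to 159 ± 12.6 CPM (SD, n = 4). The 2 that rose were CALD1, caldesmon, at 0.44 ± 0.10 and FLNC, filamin C, at 0.58 ± 0.12. ACTB, CAV1 and WIPF3 were not called.

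Of 20 genes of RNA processing, 15 fell and 2 rose, with a median of -0.51. SND1, a nuclease and coactivator, was at 452, 465, 456 and 447 CPM in control and 235, 212, 196 and 206 CPM in DDX4-null monolayers, a change of -1.1 ± 0.09, and its gene model holds that of LRRC4. Tumors lay between, at 313 to 357 CPM in controls and 293 to 353 CPM in DDX4-null libraries. BUD31 and CPSF4, factors of splicing and of 3′ end processing, changed by -1.2 ± 0.13 and -1.13 ± 0.10, and the translation initiation factor gene EIF3B by -0.64 ± 0.10. HNRNPA2B1, an abundant RNA-binding protein, rose by 0.53 ± 0.11, from 505 ± 53.4 to 729 ± 83.4 CPM (SD, n = 4). It shares a bidirectional promoter region with CBX3, which encodes a heterochromatin protein and changed by -0.11 ± 0.10 (adjusted p = 0.307), and the models of both genes overlap.

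Of 24 chromatin and transcription factor genes, 13 fell and 2 rose, with a median of -0.30, and 13 lay above the median of their arm against 5 below. AHR, the aryl hydrocarbon receptor, was at 186, 206, 215 and 175 CPM in control and 50.4, 51.4, 68.6 and 65 CPM in DDX4-null monolayers, a change of -1.73 ± 0.12. The stress-activated factor gene CREB3L2 changed by -1.48 ± 0.12, the histone methyltransferase genes KMT2E and KMT2C by -1.0 ± 0.12 and -0.84 ± 0.12, and TRRAP, the scaffold of histone acetyltransferase complexes, by -0.70 ± 0.11. ETV1, TRIM24 and NRF1 had changes of 0.01, 0.10 and -0.18 that were not called.

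Of 21 genes of DNA replication, repair and mitosis, 13 fell and 2 rose, with a median of -0.37. Here 13 lay above the median of their arm and 1 below. The single-stranded DNA binding subunit gene RPA3 changed by -0.81 ± 0.15, the mismatch repair gene PMS2 by -0.76 ± 0.12 and POLD2, a subunit of DNA polymerase delta, by -0.52 ± 0.11. SSBP1, which binds single-stranded mitochondrial DNA, changed by -0.31 ± 0.10. RFC2, a subunit of the clamp loader, rose by 0.77 ± 0.14, from 8.62 ± 1.62 to 14.7 ± 1.08 CPM (SD, n = 4), and the cell cycle kinase gene CDK6 by 0.26 ± 0.11, a call lost in 5 of 8 fits that leave out 1 library.

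Genes of mitochondrial proteins had 15 falls and no rise among 18, with a median of -0.72. HIBADH, an enzyme of valine breakdown, was at 133 ± 11.3 CPM in control and 53.1 ± 3.82 CPM in DDX4-null monolayers (SD, n = 4), a change of -1.32 ± 0.10. The import gene TOMM7 changed by -0.75 ± 0.13, CYCS, cytochrome c, by -0.60 ± 0.12 and the ribosomal protein genes MRPS33 and MRPL32 by -0.69 ± 0.11 and -0.37 ± 0.15. MDH2, malate dehydrogenase, at 0.17 ± 0.12, CHCHD3 and AGK were not called.

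The list of proteasome, ubiquitin ligase and chaperone genes had 18 falls and 2 rises among 21, with a median of -0.90. The ubiquitin ligase genes MKRN1, SMURF1 and KLHDC10 changed by -1.24 ± 0.09, -1.1 ± 0.10 and -1.33 ± 0.10. The cullin gene CUL1 went from 160.2 ± 13.3 to 94.4 ± 5.93 CPM (SD, n = 4) and the proteasome ATPase gene PSMC2 from 157 ± 24.4 to 92.5 ± 11 CPM. The rises were those of HSPB1 and, at 0.679 CPM in control and 1.41 CPM in DDX4-null monolayers, of HECW1. HECW1 became a member only through its DDX4-null libraries. CCT6A, a subunit of the chaperonin of the cytosol, changed by -0.62 ± 0.11 and UBE2H, a ubiquitin-conjugating enzyme, by -0.92 ± 0.09.

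Of 23 genes of vesicle traffic and the lysosome, 18 fell and none rose, with a median of -0.71. YKT6, a SNARE of membrane fusion, was at 190.2, 204, 197 and 192 CPM in control and 72.3, 65, 61.7 and 61.2 CPM in DDX4-null monolayers, a change of -1.59 ± 0.09. In tumors it was at 138 to 149 CPM in controls and 118 to 141 CPM in DDX4-null libraries, between both monolayer groups. AP5Z1, an adaptor subunit, changed by -1.6 ± 0.13 and BET1, a SNARE of transport to the Golgi, by -1.36 ± 0.13. EXOC4, a subunit of the exocyst, was at 108 to 124 CPM in control and 105 to 123 CPM in DDX4-null monolayers, with a change of -0.03 that was not called.

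Among 21 genes of kinases, G proteins and growth signalling, 14 fell and 4 rose, with a median of -0.86. HIPK2, a nuclear kinase of stress signalling, was at 437, 581, 578 and 357 CPM in control and 119, 91.1, 168 and 110.1 CPM in DDX4-null monolayers, a change of -2.0 ± 0.17. The growth factor genes HGF and PDGFA changed by -3.3 ± 0.25 and -2.16 ± 0.17, at the low levels of 3.53 and 9.95 CPM in control monolayers. GNB2, a G protein beta subunit, changed by -1.38 ± 0.12, BRAF, a kinase of the MAP kinase cascade, by -1.11 ± 0.10 and RHEB, the activator of mTORC1, by -0.95 ± 0.09. EIF2AK1, a kinase of the translation factor eIF2 that responds to heme, changed by -0.68 ± 0.10. The rises were those of PRKAR2B, PTN, CAMK2B and EPHB6. PTN, the growth factor pleiotrophin, went from 0.257 ± 0.160 to 4.37 ± 1.05 CPM (SD, n = 4). PTN, like PRKAR2B, became a member only through its DDX4-null libraries.

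Metabolic enzymes and transporters had 18 falls and 2 rises among 24, with a median of -0.80. ASNS fell beside PSPH, which makes serine, at -1.21 ± 0.10, and UPP1, uridine phosphorylase, at -1.72 ± 0.12. NAMPT, the enzyme of NAD salvage, was at 455, 394, 416 and 492 CPM in control and 224, 262, 282 and 295 CPM in DDX4-null monolayers, a change of -0.72 ± 0.11. It was lower again in tumors, at 58.2 to 77.2 CPM in controls and 77.5 to 85.2 CPM in DDX4-null libraries. SLC4A2, an anion exchanger, changed by -0.80 ± 0.11. The rises, of AASS and SLC29A4, were from means of 2.99 and 2.73 CPM.

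Of 13 secreted and cell surface genes, 8 fell and 2 rose, with a median of -1.05. CALU, a calcium-binding protein of the secretory pathway, was at 532 to 684 CPM in control and 212 to 253 CPM in DDX4-null monolayers. TSPAN13 changed by -2.31 ± 0.11 and CADPS2, a factor of dense-core vesicle release, by -2.21 ± 0.13. The rises were those of the signalling protein gene SHH, at 0.84 ± 0.16, and the chemokine gene CCL26, at 1.98 ± 0.31. SHH was at 7.82 CPM in control and 14 CPM in DDX4-null monolayers and at 0.294 and 0.275 CPM in both tumor groups.

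Of 8 imprinted genes 6 fell and CPA4 rose, with a median of -0.80. PEG10, a gene derived from a retrotransposon and expressed from the paternal copy, was at 304, 316, 339 and 265 CPM in control and 98.7, 77.4, 112 and 94.7 CPM in DDX4-null monolayers, a change of -1.68 ± 0.12. SGCE, which overlaps it, changed by -1.11 ± 0.11. GRB10, an adaptor of insulin receptor signalling, changed by -1.37 ± 0.10 and was lower still in tumors, at 19.9 to 31.7 CPM in controls and 27.6 to 32.9 CPM in DDX4-null libraries. TFPI2 was not called.

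The Williams syndrome stretch of 7q lay above its arm. Of 15 members there, 6 fell and 3 rose, the median was -0.19, and 11 were called above the arm median and none below. Over all 350 members of 7q, 113 were called above and 108 below. BCL7B and TBL2 changed by -0.90 ± 0.12 and -0.84 ± 0.16, EIF4H, a cofactor of translation initiation, by -0.30 ± 0.09 and BUD23, a methyltransferase of ribosomal RNA, by -0.41 ± 0.11. RFC2, LAT2 and MLXIPL rose, the last 2 from means of 0.580 and 0.428 CPM. LAT2 and MLXIPL became members only through their DDX4-null libraries, so their rise was fixed by the choice of members.

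Zinc finger genes were the list of the lowest median beside the secreted genes, -1.05, with 26 falls and no rise among 29, and 14 lay below the median of their arm against 3 above. ZKSCAN1, a KRAB and SCAN zinc finger gene, was at 178, 206, 207 and 130.2 CPM in control and 70.7, 54.8, 80.2 and 75.7 CPM in DDX4-null monolayers, a change of -1.36 ± 0.14. ZKSCAN5 changed by -0.79 ± 0.09 and ZNF282 by -0.91 ± 0.13. Zinc finger genes have close copies that can take each other's reads. Without multi-copy families, which are mostly these, the median of 7q was -0.68.

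In tumors the median change between genotypes was near 0 on both arms. Of 171 tested members of 7p, 1 rose and 1 fell, and of 340 of 7q, 5 rose and 3 fell, against 2.09% of 12942 tested genes called in either direction, 0.981% rising and 1.1% falling. The median log2 change was 0.01 on 7p and -0.01 on 7q. Scaled by library totals, the calls over all genes were 97 rising and 168 falling in place of 127 and 143, with 0 and 1 on 7p and 2 and 2 on 7q. The level of 7p lay between -0.38 and -0.30 in control tumors and between -0.36 and -0.33 in DDX4-null tumors, and that of 7q between -0.12 and -0.11 and between -0.16 and -0.11, with overlap on both arms. No called member changed 2-fold. The groups did not overlap for 12 members of 7p and 33 of 7q, against 12.6% of all tested genes.

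Of the 13 role lists, none had more than 1 member called in tumors, and their median changes there ran from -0.17 for imprinted genes to 0.09 for kinases, G proteins and growth signalling. DNA replication, repair and mitosis genes had a median of -0.15.

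The 10 called members were near the threshold. FAM131B was at 80.3, 65.5, 72.6 and 73 CPM in control and 99.2, 109.6, 129 and 101 CPM in DDX4-null tumors, without overlap, and rose by 0.59 ± 0.10 (edgeR, adjusted p = 0.0196). It had fallen by 1.33 ± 0.11 on the log2 scale in monolayers. TRA2A, a splicing factor gene, was at 47.6, 45.4, 49.5 and 46.4 CPM in control and 65.2, 63.3, 57.8 and 62.2 CPM in DDX4-null tumors, a rise of 0.39 ± 0.07 (adjusted p = 0.0285). ZNF467 rose by 0.87 ± 0.19, BET1 by 0.65 ± 0.15 and TMEM168 by 0.63 ± 0.14. CLCN1, the chloride channel of skeletal muscle, rose by 0.70 ± 0.16; the range of the muscle markers is given above, and their part in this change was not tested.

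GSDME, which encodes the pore-forming protein gasdermin E, was at 14.3, 12.1, 15.3 and 12.7 CPM in control and 10.9, 8.11, 6.99 and 7.29 CPM in DDX4-null tumors, a change of -0.72 ± 0.16 (adjusted p = 0.0429). It was called lower in monolayers too, at -0.85 ± 0.10. PODXL, podocalyxin, was at 139.6, 97.8, 94.7 and 90.2 CPM in control and 65.8, 80.3, 56.6 and 57.4 CPM in DDX4-null tumors, a change of -0.70 ± 0.15. BAZ1B, a chromatin remodelling subunit, changed by -0.37 ± 0.08 and NUP205, a nuclear pore protein, by -0.35 ± 0.08. Each of the 10 lost its call in at least 2 of the 8 fits that leave out 1 library, FAM131B in 2 and TRA2A in 4, and with DESeq2 6 and 19 members of 7p and 7q were called. The share of all genes that DESeq2 called is not given here. The stretch of 7q from NAMPT to ING3 had a median of 0.24 in tumors. Its level was -0.65 to -0.20 in control and -0.41 to -0.24 in DDX4-null tumors, so the libraries overlapped.

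Control tumors were compared with control monolayers within the control genotype. Here 7p was lower and 7q less so: 95 of 172 tested members of 7p fell and 27 rose, with a median of -0.35, and 134 of 342 of 7q fell and 88 rose, with a median of -0.12. Of 12858 tested genes 31% fell and 33.9% rose. Among the 41 arms, 7p had the second lowest median after 18p. Scaled by library totals, 5563 genes rose and 2872 fell in place of 4354 and 3986, the median of genes on other chromosomes moved to 0.16, and that of 7q turned to 0.05, with 115 rises and 96 falls, while 7p had 40 rises and 72 falls. Relative to other chromosomes, 7p was at -0.35 and 7q at -0.11 under the main scaling and at -0.34 and -0.11 under library totals.

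By list, the falls were most uniform among the 18 mitochondrial genes, of which 12 fell and none rose with a median of -0.52, while of the 15 members of the Williams syndrome stretch 6 rose and 3 fell with a median of 0.16.

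The largest fall among the named members was that of ASNS, which was at 721 to 986 CPM in control monolayers and 55.7 to 72.3 CPM in control tumors, a log2 change of -3.7 ± 0.12 (edgeR, adjusted p = 1.95e-13). DDX4-null tumors were at 63.9 to 85.8 CPM, which overlaps the control tumors. NAMPT changed by -2.65 ± 0.11, GRB10 by -2.45 ± 0.12 and GARS1 by -1.77 ± 0.09. In the other direction ACTB changed by 0.75 ± 0.11, with 1121 to 1562 CPM in control monolayers and 2029 to 2595 CPM in control tumors. CAMK2B, a calcium- and calmodulin-dependent kinase, rose by 3.29 ± 0.13, from 6.2 ± 0.746 to 60.4 ± 7.64 CPM (SD, n = 4). In the stretch of 7q from CNPY4 to NAT16, 17 of 29 members rose and 4 fell, with a median of 0.35.

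**Figure D5:**
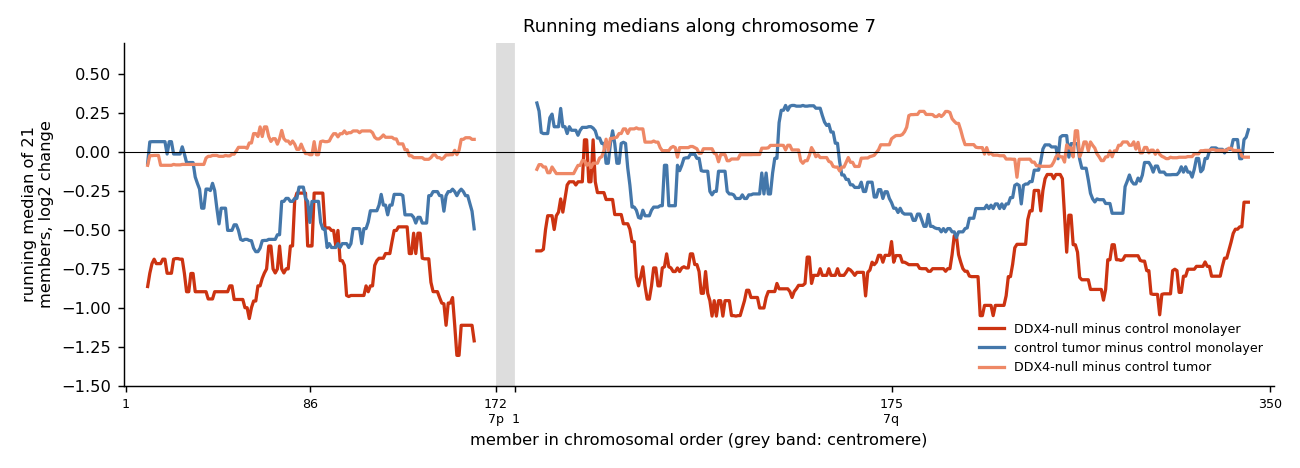
Running median of the log2 change over 21 members in gene order, over windows with at least 18 tested, for DDX4-null minus control monolayer, control tumor minus control monolayer, and DDX4-null minus control tumor. The monolayer line is lowest around CCM2 at -1.31, the control tumor line around VWDE at -0.64, and the line of tumors by genotype stays between -0.16 and 0.26.

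DDX4-null tumors were above DDX4-null monolayers on both arms. Of 172 members of 7p, 102 rose and 28 fell, with a median of 0.51, and of 347 of 7q 228 rose and 43 fell, with a median of 0.56. Over 13277 tested genes, 34.6% rose and 35.3% fell. ZDHHC4 changed by 5.31 ± 0.21 and ZNF736 by 5.27 ± 0.24, both from near 0 CPM. NOS3, at -3.91, and HSPB1, at -1.25 ± 0.15, fell. By list, 27 of 29 zinc finger genes rose and 1 fell, with a median of 1.06. In arm level, the DDX4-null tumors were not at the level of control monolayers, but at that of control tumors.

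The difference of the genotype changes between tumor and monolayer was tested in a model of all 16 libraries. The contrast was called positive for 121 and negative for 12 members of 7p, and for 226 and 30 of 7q, against 26% and 26.8% of 13603 tested genes. The median contrast was 0.79 on 7p and 0.71 on 7q. It was 4.93 ± 0.22 for ZDHHC4, 4.65 ± 0.34 for MEST, 4.48 ± 0.20 for AGR2 and 4.32 ± 0.27 for ZNF736. For SDK1 it was -3.24 ± 0.41, and for NOS3 -7.02 ± 0.56, PRKAR2B -6.53 ± 0.58 and CNTNAP2 -4.75 ± 1.01, the last 3 dependent on the prior count. The genes of negative contrast named here became members only through their DDX4-null monolayers. Of those of positive contrast, ZDHHC4, MEST and ZNF736 became members only through their control monolayers, and AGR2 did not. Scaled by library totals, the contrast was positive for 2721 and negative for 4399 of all genes in place of 3532 and 3649, for 112 and 15 members of 7p, and for 199 and 33 of 7q. The median tumor change was near 0 on these arms, so the contrast mostly repeats the monolayer change with its sign turned, and it uses the same libraries.

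For members whose DDX4-null monolayer mean lay below the control monolayer mean, the tumors could be placed between both monolayer groups or outside them. This held for 144 members of 7p and 288 of 7q, and for 5588 of 11720 genes on other chromosomes. Both tumor means lay between both monolayer means for 72 of the 144 (50%) and 121 of the 288 (42.0%), against 1140 of the 5588 (20.4%). All 8 tumor libraries lay between the libraries of both monolayer groups for 28 members of 7p (19.4%) and 34 of 7q (11.8%), against 157 genes elsewhere (2.81%). AGR2, YKT6 and SND1 are examples. A wider gap between both monolayer groups leaves more room for tumors to lie between them. The lower quartile of the monolayer change was -1.18 on 7p and -1.08 on 7q, against -0.39 on other chromosomes. The shares were not compared at equal gaps, so nothing is read from their difference. Both tumor means were above the control monolayer mean for 29 members of 7p and 83 of 7q, and below the DDX4-null monolayer mean for 23 and 31, ASNS, NAMPT and GRB10 among them.

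Of the 522 members, 164 overlap another gene of the table in GENCODE v29, 134 of them a gene on the other strand. Reads in the overlap may be counted for either gene or for none, and values of these members are uncertain to that extent.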

How the data were processed

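Raw read counts per gene were deposited by the authors as 1 table of whole numbers for 16 libraries, 4 in each of 4 groups. Per the submitters' processing notes, Trimmomatic 0.39, STAR 2.7.10a, featureCounts 2.0.3 and the build GRCh37 were used; the sources used here give no settings, strand option or gene annotation for them. Gene symbols, positions, arms and overlaps came from GENCODE v29, matched by gene ID for 19511 of 20356 rows, and promoters from RefSeq tables on GRCh38.p14. Coordinates of genes are not printed, since that build differs from the one of the counts.

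Counts were tested with edgeR 4.0.16 in R 4.3.3 (quasi-likelihood F test, TMM scaling, filterByExpr, Benjamini-Hochberg adjustment over all tested genes, threshold 0.05), with each comparison fitted on its own 8 libraries and the difference of genotype changes on all 16. Values per library are CPM on TMM-scaled totals, while the limit of 1 CPM for members used library totals. Changes are log2 with standard errors. A member called against its arm was tested with the arm's median change as an offset. Library totals of 12204254 to 25443952 counts set the precision. Replicates correlated across genes at 0.989 to 0.998, and none agreed within sampling noise.

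The members and lists were chosen with earlier results of these data known. Named genes are the 5 most abundant members per kilobase on each arm, the 5 largest monolayer rises and falls on each arm among called members of at least 5 CPM in the higher group without overlap, up to 5 tumor rises and falls chosen likewise at 1 CPM, the 4 largest contrasts of each sign, the 3 most abundant members of each list, and the ends of the arms. A gene that this rule names is not reported here. Other examples within lists and stretches were chosen after their values were seen. On simulated monolayer counts of 12865 genes, 66.3% of log2 changes of 0.5 and 97.0% of those of 1 were recovered, with 6.54% false calls. On simulated tumor counts of 12857 genes the values were 32.3%, 79.6% and 12%. Each simulation changed 200 genes, and the monolayer one also shifted chromosome 7 by -0.75. Calls on shifted genes enter its total of calls, so both shares of false calls are not alike. In the real monolayers 4555 genes rose and 4201 fell, far more than were changed in the simulation. Alternatives were DESeq2 1.42.0, scaling by library totals, centring outside chromosome 7, other filters, all libraries in 1 model, other member sets, a replicate block and leaving out each library. Members of at least 1 CPM in every group were added as an alternative after seeing the data.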

Additional observations from a re-analysis of the deposited data

Results flagged for a closer look

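In 9 of 276 groups of 4 libraries checked, 268 for the named members and 8 for the arm levels, 1 library lay far from the other 3 by Dixon's criterion, which chance meets in about 1 of 20 groups. In control monolayers these were PRR15 in replicate 4 at 21.6 CPM, PRKAR2B in replicate 2 at 0 CPM, PILRB in replicate 2 at 25.8 CPM and MDH2 in replicate 4 at 189.9 CPM. In DDX4-null monolayers they were ZYX in replicate 4 at 489 CPM and GNB2 in replicate 1 at 92.8 CPM. In tumors they were CACNA2D1 at 0.949 CPM and TRRAP at 129 CPM, both in control replicate 3, and NOS3 at 0.0884 CPM in DDX4-null replicate 1.

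The genotype change differed between tumors and monolayers by edgeR's test of the difference for 121 members of 7p that were more positive in tumors and 12 that were more negative, and for 226 and 30 members of 7q. The largest contrasts among members of at least 5 CPM in the highest group were 4.93 for ZDHHC4, 4.65 for MEST, 4.48 for AGR2 and 4.32 for ZNF736, and in the other direction -7.02 for NOS3, -6.53 for PRKAR2B, -4.75 for CNTNAP2 and -3.24 for SDK1. Those in the other direction became members only through their DDX4-null monolayers, and ZDHHC4, MEST and ZNF736 only through their control monolayers.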

How the results depend on the processing

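The monolayer falls of both arms kept their direction and were within 1.5 times the main count under every alternative run. Fewer members rose with a filter at 5 CPM, 9 on 7p and 18 on 7q, with members of at least 5 CPM, also 9 and 18, and with members of at least 1 CPM in every group, 10 and 21; these settings hold fewer weakly expressed genes. The median moved to -0.88 on 7p and -0.75 on 7q when centred outside chromosome 7, and to -0.76 and -0.63 with library totals; on 7q it was -0.72 with no filter and -0.68 without multi-copy families. Tumor calls over all genes are not given here for alternatives other than library totals, so those counts lack a background. In tumors, DESeq2 called 4 rises and 2 falls on 7p and 10 rises and 9 falls on 7q, all 16 libraries in 1 model gave 4 rises on 7p and 9 rises and 7 falls on 7q, a filter at 5 CPM 2 rises on 7p, and library totals 0 rises on 7p and 2 on 7q with medians of -0.051 and -0.070. The cause was not tested.

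Between control tumors and control monolayers, library totals gave -0.18 on 7p and 0.050 on 7q; on 7q a filter at 5 CPM gave -0.094 and no filter -0.13. Between DDX4-null tumors and monolayers, the filter at 5 CPM gave medians of 0.48 and 0.61 and 21 falls on 7q. For the contrast it left 7 and 13 negative members, with a median of 0.74 on 7q, and library totals gave 0.65 and 0.58. With library totals the mean level of 7p was -0.72 in DDX4-null monolayers, -0.17 in control and -0.24 in DDX4-null tumors, and that of 7q -0.61, 0.033 and -0.044. The cause was not tested.

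Leaving out each library gave 125 to 133 falls, 15 to 17 rises and medians of -0.84 to -0.80 on 7p in monolayers, and 243 to 253, 34 to 37 and -0.72 to -0.70 on 7q. In tumors it gave 0 to 1 falls, 0 to 2 rises and medians of -0.0043 to 0.03 on 7p, and 0 to 2, 0 to 5 and -0.01 to 0.02 on 7q. For control tumors against monolayers it gave 86 to 97, 23 to 26 and -0.37 to -0.32 on 7p, and 127 to 134, 77 to 90 and -0.13 to -0.10 on 7q. For DDX4-null tumors against monolayers it gave 24 to 28, 98 to 102 and 0.47 to 0.52, and 41 to 46, 217 to 235 and 0.55 to 0.58. For the contrast it gave 11 to 14, 119 to 124 and 0.77 to 0.83, and 28 to 31, 221 to 231 and 0.70 to 0.74.

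Among named members, 3 changes that were not called turned sign. ACTB ran from -0.045 to 0.103 when 1 library was left out, CAV1 from -0.105 to 0.035 and EXOC4 from -0.078 to 0.011. With library totals CAV1 was at 0.033 and EXOC4 at 0.044. Of the other values of named members under alternatives, 1126 kept direction and side of the threshold, 64 lost the call and 2 gained it.

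Replicate numbers did not pair the samples: the deviations of same-numbered libraries correlated at -0.105 to 0.172 in monolayers and -0.08 to 0.148 in tumors. With the replicate number as a block, 133 members of 7p fell and 16 rose in monolayers and 254 and 38 of 7q, and in tumors 3 members of 7p rose; no other count on the arms moved by over 1.5 times. Among named members the block ended the tumor calls of CLCN1, BAZ1B and NUP205 (edgeR, adjusted p = 0.0572, 0.0587 and 0.0573) and no other call. Depth limits members under about 1 CPM, whose log2 changes depend on the prior count.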
